A study of Sus scrofa with 10 samples.

Results

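Purkinje-like neurons were picked out of droplet-based single-cell RNA sequencing (scRNA-seq) of the developing pig medial entorhinal cortex (MEC) by their transcripts of CALB1 and CA8. In the libraries E50_1 and E60_1, a cell was a member if it held at least 3 unique molecular identifiers (UMIs, each standing for 1 captured transcript) of CALB1 and at least 2 UMIs of CA8. This gave 250 of the 28229 cells of the series, of which 132 of 5506 cells (2.40%, exact 95% confidence interval, CI, 2.01 to 2.84%) were in E50_1 and 118 of 8171 cells (1.44%, CI 1.20 to 1.73%) were in E60_1. The intervals cover counting error only. E50_1 held whole cells of 3 pooled fetal brains taken at embryonic day 50, and E60_1 held whole cells of 1 fetal brain taken at embryonic day 60, both from pigs of a production farm. The series holds 8 further libraries of whole cells or nuclei from E60, E70 and adult brains. Stage, brain and library all differ between E50_1 and E60_1 and cannot be told apart, nor can any difference in sequencing pool.

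Purkinje cells are the GABAergic output neurons of the cerebellar cortex. They are born early from ventricular progenitors of the hindbrain that express PTF1A, settle below the later granule cells, and answer glutamate and climbing fiber input with calcium release through the IP3 receptor ITPR1, which sits at an unusually high density in their dendrites. CALB1 (calbindin) buffers that calcium, and CA8 is a catalytically inactive carbonic anhydrase that binds ITPR1. SKOR2 is a co-repressor of young Purkinje cells, and FOXP2 is a forkhead transcription factor found in many of them as well as in deep-layer neurons of the cortex. The labels name the source of all libraries as entorhinal, a tissue of the telencephalon in which no Purkinje cells are known.

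CALB1 lies on chromosome 4 of Sscrofa11.1 from 46701276 to 46723548, and CA8 lies on the same chromosome from 73047867 to 73172215. ITPR1 lies on chromosome 13 from 61068131 to 61398918, SKOR2 on chromosome 1 from 96795362 to 96842360, and FOXP2 on chromosome 18 from 31335102 to 31890523. Since EBF1, EBF2, EBF3 and RORA, all DNA-binding factors, were among the genes highest in the members, the 250 bases before the RefSeq gene start of CALB1, CA8, SKOR2 and the 15 named genes described below were searched on both strands for the EBF motif (TCCC and GGGA with any 2 bases between) and for the ROR motif AGGTCA. The EBF motif was found in 0 of these 18 promoters and in 184 of 19556 promoters of all protein-coding genes (0.941%). The ROR motif was found in 1 of the 18, that of PDE1C, and in 2395 of all promoters (12.2%). The promoters of both genes of the rule and of PDE1C are shown 5′ to 3′ in RefSeq's Sscrofa11.1, with the ROR motif in capitals, here on the minus strand with its first base 154 bases before the gene start. These matches describe letters in a window and no binding was measured.
CALB1, chr4:46701026-46701275, plus strand: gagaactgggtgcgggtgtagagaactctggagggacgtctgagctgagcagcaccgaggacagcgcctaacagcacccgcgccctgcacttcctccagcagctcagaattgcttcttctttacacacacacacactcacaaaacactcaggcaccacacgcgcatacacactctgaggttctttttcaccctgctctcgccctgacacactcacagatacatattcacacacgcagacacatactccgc
CA8, chr4:73047617-73047866, plus strand: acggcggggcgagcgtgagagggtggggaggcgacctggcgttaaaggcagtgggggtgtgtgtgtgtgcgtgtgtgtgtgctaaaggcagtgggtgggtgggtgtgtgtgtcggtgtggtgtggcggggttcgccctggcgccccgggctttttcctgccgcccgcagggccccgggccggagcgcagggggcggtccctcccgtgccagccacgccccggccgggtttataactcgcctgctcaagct
PDE1C, chr18:40818066-40818315, plus strand: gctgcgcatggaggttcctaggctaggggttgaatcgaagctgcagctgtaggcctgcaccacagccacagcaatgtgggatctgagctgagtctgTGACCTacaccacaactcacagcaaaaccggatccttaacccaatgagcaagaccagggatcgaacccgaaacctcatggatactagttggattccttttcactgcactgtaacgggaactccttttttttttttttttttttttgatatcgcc

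The rule names only E50_1 and E60_1, and 0 of the 14552 cells of the other 8 libraries would have met it, which allows a share of up to 0.0206% when 3 cells are taken as the limit. In those libraries 39 cells held a UMI of both genes. CALB1 was at 46.0 UMIs per 1000000 UMIs (CPM) over all cells of E50_1 and at 75.5 CPM in E60_1, against 1.24 to 8.56 CPM in the other 8 libraries. CA8, at 46.5 and 59.7 CPM, lay inside the 10.2 to 92.4 CPM of the other 8. So did SKOR2 (2.49 and 1.38 CPM, against 0.511 to 11.6) and ITPR1 (67.0 and 59.7 CPM, against 32.2 to 101). FOXP2 was at 48.8 and 33.8 CPM, against 14.3 to 33.8. The 18 Purkinje transcription factors counted below summed to 1290 and 1451 CPM, against 1727 to 4081. E50_1 and E60_1 also held 140 and 124 cells with a UMI each of PAX6, ZIC1 and RELN, against at most 11 such cells in any other library. NEUROD6, a gene of cortical excitatory neurons, was at 265 CPM in E50_1, 2.91 CPM in E60_1, 0.275 CPM in E60_2 and 80.2 CPM in E60_3. E50_1 and E60_1 thus held unlike amounts of this cortical transcript.

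The 2 libraries differed in depth. E50_1 held 55755512 UMIs and E60_1 held 43591727 UMIs. Members had a median of 10692.5 UMIs (5114 to 23527) and 4184.5 genes in E50_1, and a median of 4182.5 UMIs (2794 to 38928) and 2176.5 genes in E60_1. Hemoglobin genes made up 0.122% of the members' UMIs in E50_1 and 2.00% in E60_1. The deepest member of E60_1 lies far above that library's median of 4251 UMIs. The libraries had 57 cell barcodes in common, but no barcode belonged to a member in both.

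The members were chosen by their UMIs of CALB1 and CA8, so the values of these genes are a description. CALB1 was at 3 UMIs in the lowest, 10 in the median and 51 in the highest member of E50_1, and at 4, 19.5 and 62 UMIs in E60_1. CA8 was at 2, 10 and 49 UMIs in E50_1 and at 2, 3.5 and 13 UMIs in E60_1. Few members of E50_1 but many of E60_1 lay close to the limit. Just inside it, with CALB1 at 3 UMIs or CA8 at 2 UMIs, were 10 cells of E50_1 and 29 cells of E60_1. Just outside it, 7 cells of E50_1 and 24 cells of E60_1 held 1 UMI of CA8 with at least 3 of CALB1. These 24 cells had CALB1 at 4358 CPM, ITPR1 at 1001 CPM and EBF1 at 1385 CPM, near the 5110, 808 and 2019 CPM of the 29 cells just inside. The 7 cells of E50_1 were less like those inside, with CALB1 at 643 CPM, ITPR1 at 107 CPM and EBF1 at 664 CPM. The 10 cells just inside in E50_1 were at 1100.5, 506 and 1100.5 CPM. A further 6 and 2 cells held 2 UMIs of CALB1 with at least 2 of CA8.

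The markers given with the label Purkinje-like that the rule did not use are described next. Members and markers were chosen with earlier results of these data known, so the markers are no independent check of the label. Of ITPR1, SKOR2 and FOXP2, at least 2 were detected in 118 of the 132 members of E50_1 and in 81 of the 118 members of E60_1, and none was detected in 3 and 2 members. Levels are given here as CPM over the summed UMIs of a class, and were compared within each library with 3 other classes. The first were other GABA cells, which held at least 2 UMIs of GAD1 plus GAD2, the enzymes of GABA synthesis, and not both CALB1 and CA8. There were 559 of them in E50_1 and 289 in E60_1. The second were the 140 and 124 PAX6 ZIC1 RELN cells, a combination known from cerebellar granule cells. Of these, 22 in E50_1 and 2 in E60_1 were also other GABA cells, so the first and second class overlap. The third were 128 and 1117 microglia, cells with UMIs of AIF1 and CSF1R that should lack these genes and so show the background from free RNA.

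ITPR1 was at 570 CPM in the members, 32.2 in other GABA cells, 40.1 in PAX6 ZIC1 RELN cells and 31.7 in microglia of E50_1. In E60_1 it was at 802, 34.7, 48.8 and 16.04 CPM. The members were therefore 17.7 and 23.1 times above other GABA cells, in the same direction in both libraries. A UMI of ITPR1 was found in 91.7% and 91.5% of the members against 13.3% and 5.73% of the microglia, at median depths of 11387.5 and 4856 UMIs in the latter.

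SKOR2 was rare and far higher in the members than in the other classes of both libraries. It was at 59.9 and 44.5 CPM in the members of E50_1 and E60_1, at 1.35 and 0.588 CPM in other GABA cells, at 0.618 and 1.39 CPM in PAX6 ZIC1 RELN cells, and at 0 and 0.496 CPM in microglia. The members made up 2.51% and 1.496% of all UMIs of the libraries, yet held 60.4% and 48.3% of the UMIs of SKOR2. They held smaller parts of the UMIs of ITPR1 (21.4% and 20.1%), FOXP2 (24.2% and 11.5%) and EBF1 (21.3% and 8.36%). Most transcripts of these genes thus lay in other cells. FOXP2 was at 470 and 259 CPM in the members, 25.9 and 18.2 CPM in other GABA cells, and 72.9 and 85.0 CPM in PAX6 ZIC1 RELN cells. The plot of marker levels sets these values side by side.

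**Figure D1:**
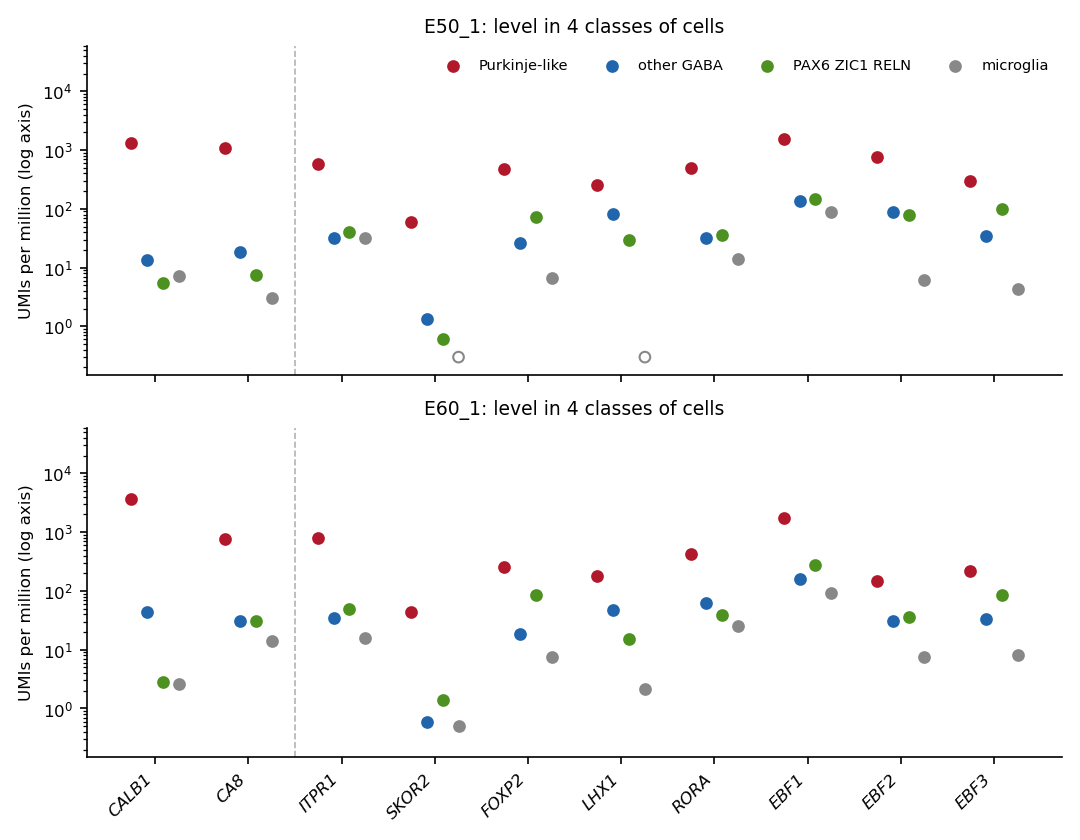
Levels in CPM (log axis) of CALB1 and CA8, which chose the members, and of 8 other Purkinje lineage genes in the 4 cell classes of E50_1 and E60_1. Each point is the sum over the cells of 1 class in 1 library, and open points mark 0 UMIs; ITPR1 in the members, at 570 and 802 CPM, lies above all other classes of both libraries.

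The list of 18 transcription factors of the Purkinje lineage was also counted per cell, after drawing each cell down to 2000 UMIs so that depth was equal, which left out no cell. At this depth a median of 5 of the 18 genes was detected in the members of both libraries, against 2 and 1 in other GABA cells, 2 and 2 in PAX6 ZIC1 RELN cells and 1 and 1 in microglia. At least 3 were detected in 94.7% and 88.1% of the members, in 27.7% and 24.9% of other GABA cells, in 30.7% and 47.6% of PAX6 ZIC1 RELN cells and in 6.25% and 7.07% of microglia. At full depth the medians of the members were 9 and 7 genes. Granule cell genes were scarce in the members. At 2000 UMIs at least 3 of 18 were found in 1 member of E50_1 and 2 members of E60_1. In other GABA cells they were found in 64 of 559 and 19 of 289. The counts were 109 of 140 and 97 of 124 in PAX6 ZIC1 RELN cells. PAX6, ZIC1 and RELN are among the 18 and chose these cells, so that contrast was largely fixed in advance. At this depth 3 or more of 20 telencephalic genes were found in 0 members, but also in only 11 of 559 and 1 of 289 other GABA cells, so the measure does not separate the classes.

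To ask which genes set the members apart from the other GABA cells around them, the UMIs of each class were summed per library and the 4 sums were fitted with edgeR's quasi-likelihood test, with the library as a term. CALB1, CA8, GAD1 and GAD2 chose the cells and are not counted. Of 13896 genes tested, 129 were higher (0.928%) and 207 were lower (1.49%) in the members at an adjusted p under 0.05, and the median log2 fold change over all genes was -0.02. A sum over cells is not an animal. The p-values rest on 4 sums with 1 residual degree of freedom and on an estimate of spread that edgeR shares among genes.

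The transcription factors of the Purkinje lineage were the group with most changes, as 8 of the 16 tested were higher and 0 were lower, with a median log2 fold change of 1.96. The group includes SKOR2 and FOXP2. FOXP2 was higher by 4.09 on the log2 scale (SE 0.22, adjusted p = 0.000133, edgeR). SKOR2 was higher by 5.63 (SE 0.44, adjusted p = 0.000747), resting on 84 and 29 UMIs in the members and on 8 UMIs and 1 UMI in the other GABA cells. The fold of SKOR2 in E60_1, 75.7, has a counting interval of 12.5 to 3090.

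The EBF genes encode helix-loop-helix factors of early neurons, and all 3 were high. EBF1 was at 1527 CPM in the members and 135 CPM in other GABA cells of E50_1, and at 1757 and 162 CPM in E60_1. It was higher by 3.53 on the log2 scale (SE 0.15, adjusted p = 5.67e-05), with folds of 11.3 and 10.9, and a UMI was found in 131 of 132 and 118 of 118 members. EBF2 was at 775 against 86.6 CPM in E50_1 and at 149 against 30.6 CPM in E60_1, and EBF3 was at 296 against 34.2 and 221 against 33.5 CPM. The folds of EBF2 and EBF3 were smaller than those of EBF1, at 8.95 and 4.87 for EBF2 and 8.66 and 6.59 for EBF3.

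RORA, the nuclear receptor whose loss stops Purkinje cells from maturing in the staggerer mouse, was at 494 against 32.3 CPM in E50_1 and at 423 against 62.9 CPM in E60_1. Its log2 fold change was 3.42 (SE 0.30, adjusted p = 0.00117). LHX1, a LIM homeobox factor of young Purkinje cells, was at 252 against 81.3 CPM and 182 against 47.0 CPM, higher by 1.83 (adjusted p = 0.00289). Other GABA cells thus held LHX1 too, while microglia were at 0 and 2.15 CPM. FOXP4 was at 19.3 against 3.03 CPM and 29.1 against 2.94 CPM, higher by 2.95 (adjusted p = 0.0201). BCL11A did not pass (log2 fold change 1.12, adjusted p = 0.128) with 156 against 121 CPM in E50_1 and 346 against 99.3 CPM in E60_1, nor did ESRRB (2.09, adjusted p = 0.0583). OLIG2 was at 0 UMIs in all 4 classes, and PTF1A, the factor of Purkinje progenitors, was at 0 in the members.

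**Figure D2:**
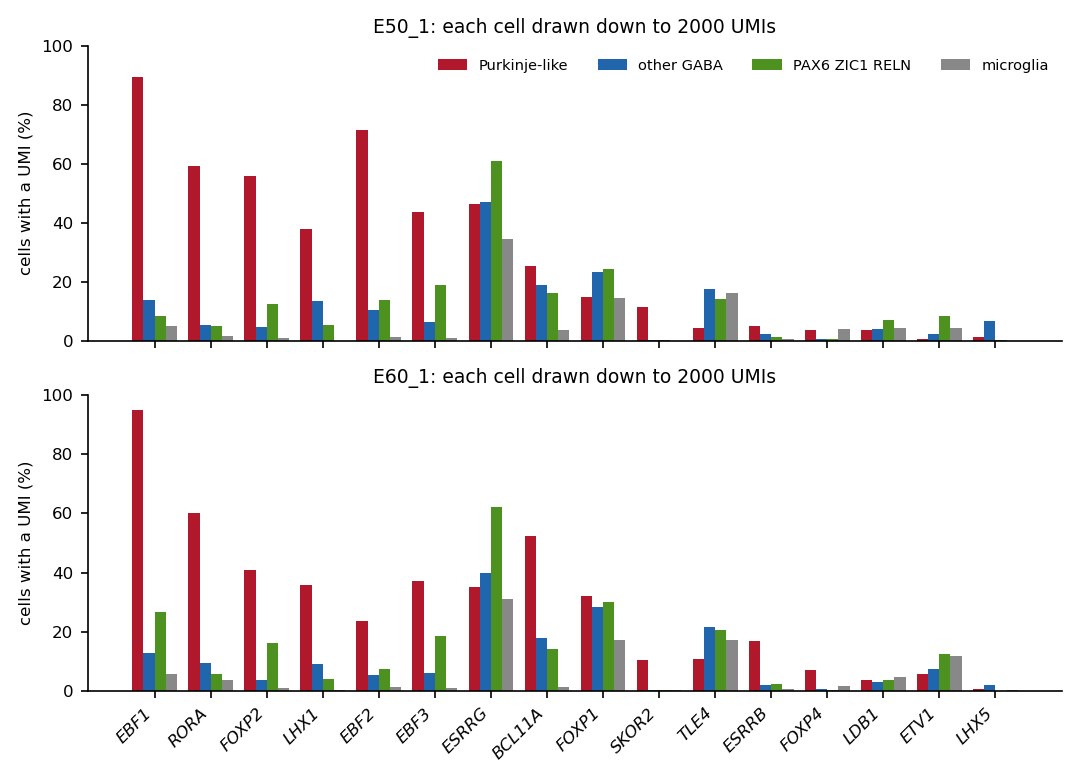
Share of cells (percent) expected to hold a UMI of 16 transcription factors of the Purkinje lineage once each cell is drawn down to 2000 UMIs, in the 4 classes of E50_1 and E60_1. EBF1 was detected in 89.3% and 94.97% of the members, against 13.9% and 12.6% of other GABA cells.

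Of the 15 genes named by the size of their fold in both libraries, ITPR1, FOXP2, EBF1, EBF2, EBF3 and RORA are given above. The widest fold was that of ARHGEF33, a guanine nucleotide exchange factor, at 134 CPM against 2.86 CPM in E50_1 and 73.6 CPM against 1.18 CPM in E60_1. It was higher by 5.67 on the log2 scale (SE 0.33, adjusted p = 0.000194). Its fold in E60_1, 62.6, rests on 2 UMIs in other GABA cells and has an interval of 16.4 to 532. The members held 44.3% and 50.5% of all UMIs of ARHGEF33 in the libraries.

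Of the remaining 8, KITLG encodes the ligand of the receptor KIT, which cerebellar interneurons carry, and was at 227 against 22.2 CPM in E50_1 and 362 against 42.9 CPM in E60_1 (log2 fold change 3.27, adjusted p = 0.000274). DGKH, a diacylglycerol kinase, was at 736 against 95.1 and 996 against 87.0 CPM. PDE1C, a phosphodiesterase switched on by calcium and calmodulin, was at 429 against 79.3 and 523 against 72.3 CPM. All 3 differed in the same direction in both libraries, and PDE1C by folds of 5.41 and 7.23.

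SPOCK3, a secreted proteoglycan, was the most abundant of the 15 in E50_1 at 1801 against 244 CPM, with 996 against 120 CPM in E60_1. The tyrosine phosphatase PTPRR was at 191 against 35.5 and 150 against 24.1 CPM, and the membrane protein TMEM132C at 508 against 77.8 and 423 against 70.5 CPM. STK17B, a kinase at 69.9 against 3.54 and 113 against 12.3 CPM, and NRK, a kinase at 34.2 against 3.70 and 155 against 17.04 CPM, were also seen in microglia. STK17B was at 17.7 and 45.8 CPM and NRK at 88.9 and 94.8 CPM in microglia, and the part of transcripts from these cells in the levels of the members was not tested.

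**Figure D3:**
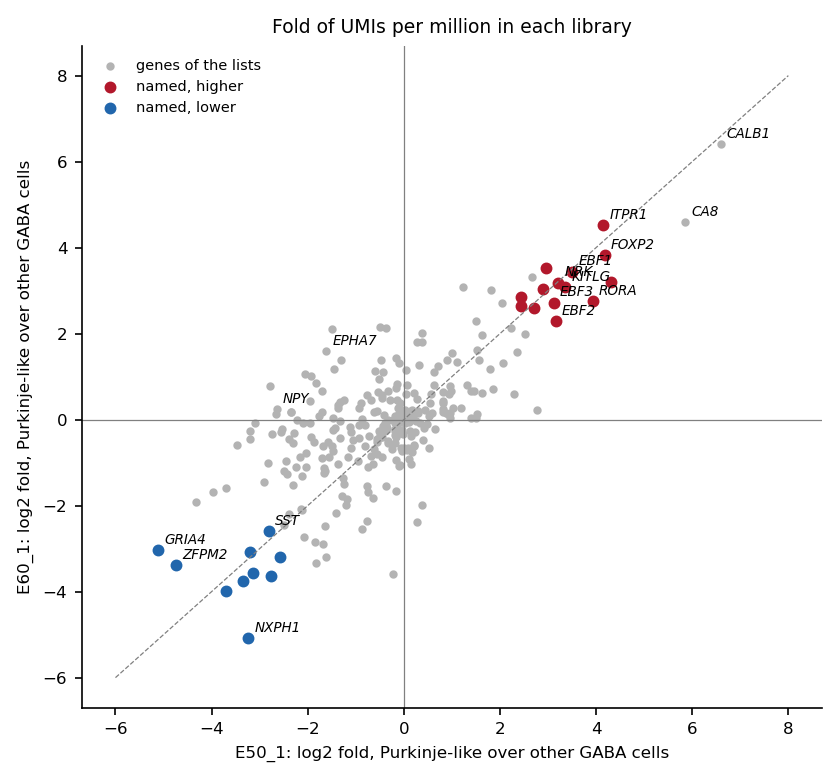
Log2 fold of the members over other GABA cells in E50_1 (x axis) and E60_1 (y axis) for the genes of the lists (grey), the named genes that were higher (red, without ARHGEF33) and those that were lower (blue), for genes with at least 3 UMIs in each of the 4 sums. Some named genes lie near the dashed line of equal folds, for example EBF1 with 11.3 and 10.9 times. Others lie off it, for example NXPH1 with log2 folds of -3.24 and -5.08 and RORA with 3.93 and 2.75.

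Around the IP3 receptor, 3 of 28 tested genes of IP3 and calcium signalling were higher and 1 was lower. ITPR1 and ATP2B2 were among the 3. ATP2B2, a plasma membrane calcium pump, was at 322 against 56.4 CPM and 225 against 57.0 CPM (log2 fold change 2.33, adjusted p = 0.00152). SLC8A1, the sodium and calcium exchanger, was lower at 101 against 455 CPM and 284 against 520 CPM. The members therefore differed in the receptor and a pump, while PLCB4, a phospholipase of this pathway, was at 468 against 241 and 376 against 363 CPM and did not pass (adjusted p = 0.328).

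Of 16 tested genes of maturing and adult Purkinje cells, 3 were higher and 0 were lower, with a median log2 fold change of 0.40. They include NEFL and CACNA1A. The neurofilament gene NEFL was at 1933 against 379 CPM in E50_1 and 923 against 309 CPM in E60_1 (log2 fold change 2.03, adjusted p = 0.00231). CACNA1A, the P/Q-type calcium channel, was at 292 against 190 and 392 against 182 CPM (0.91, adjusted p = 0.0435). The adult markers PCP2 and PVALB were barely detected at this depth. A UMI of PCP2 was found in 2 members of E50_1 and 0 of E60_1, with only 21 UMIs in the whole series, and one of PVALB in 0 and 1 members. PCP4, which adult Purkinje cells hold in large amounts, was as high in other GABA cells, with 919 against 963 CPM and 1855 against 2939 CPM.

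Reelin signalling places Purkinje cells in their layer, and of 7 genes of this pathway 2 were higher and 1 was lower. The adaptor DAB1 was at 1176 against 251 CPM in E50_1 and 849 against 193 CPM in E60_1 (log2 fold change 2.24, adjusted p = 0.000367), and a UMI was found in 100% and 96.6% of the members. The receptor VLDLR was at 62.8 against 18.2 and 52.1 against 22.9 CPM (1.59, adjusted p = 0.0327). RELN itself was lower at 86.3 against 272 and 78.2 against 186 CPM (-1.41, adjusted p = 0.0106), and was at 1585 and 1193 CPM in PAX6 ZIC1 RELN cells. Relative to other GABA cells, receptor and adaptor were thus higher and the ligand lower in the members. Within the members RELN still lay above VLDLR in CPM.

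The members held GABA transcripts, although the rule did not ask for them. The vesicular GABA transporter SLC32A1 was at 107 CPM in both members and other GABA cells of E50_1 and at 61.3 against 96.4 CPM in E60_1 (log2 fold change -0.22, adjusted p = 0.756), against 1.83 and 1.98 CPM in microglia. GAD1 was at 156 and 46.0 CPM and GAD2 at 159 and 88.9 CPM in the members, but these genes chose the other GABA cells. Of 18 tested genes of GABA synthesis, transport and receptors, 0 were higher and 2 were lower. These were the receptor subunits GABRA2 (-2.10, adjusted p = 0.0237) and GABRB2 (-2.09, adjusted p = 0.0146). The glutamate transporter genes SLC17A6, SLC17A7 and SLC17A8 were at 9.99 CPM together in E50_1 and 1.53 CPM in E60_1.

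Among peptides and markers of cortical interneurons, 1 of 11 tested was higher and 2 were lower. NDNF, a secreted factor, was at 280 against 6.23 CPM in E50_1 and at 46.0 against 0.588 CPM in E60_1 (log2 fold change 5.62, adjusted p = 0.000133). Its fold of 78.3 in E60_1 rests on 1 UMI in other GABA cells, with an interval of 13.0 to 3193. SST was lower at 79.2 against 554 and 79.7 against 479 CPM. In E50_1 it was detected in 37.9% of the members and 28.4% of other GABA cells, and at 2000 UMIs in 12.0% and 14.3%. In E60_1 a member cell held 50 of its 52 UMIs, with only 3 of 118 members positive. CALB2 was lower at 42.1 against 220 and 21.5 against 98.7 CPM.

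Potassium channels went both ways, with 3 of 27 higher and 3 lower. KCNN2, a small conductance channel opened by calcium, was at 122 against 29.6 and 166 against 25.3 CPM (log2 fold change 2.39, adjusted p = 0.00212). KCNMA1, the large conductance channel opened by calcium, was at 268 against 125 and 319 against 127 CPM (1.27, adjusted p = 0.0102), and KCNIP4, an accessory subunit, at 342 against 81.3 and 297 against 119 CPM (1.76, adjusted p = 0.00748). Of 21 glutamate receptor genes 0 were higher and 5 were lower, among them GRIA4, an AMPA receptor subunit at 12.1 against 420 CPM and 49.1 against 400 CPM, and GRIN2B, an NMDA receptor subunit at 53.5 against 321 and 19.9 against 183 CPM. GRIA1 and GRIA2 did not pass.

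Of 35 axon guidance genes, 2 were higher and 2 were lower. SLIT3, a ligand of the ROBO receptors, was at 85.6 against 30.0 and 41.4 against 13.5 CPM, and SEMA3A, a secreted semaphorin, at 62.8 against 31.2 and 117 against 40.0 CPM. The netrin receptor DCC was at 99.9 against 407 and 182 against 393 CPM. Of 19 cadherins, CDH11 was higher (1.54, adjusted p = 0.00532), and CDH7, CDH8 and CDH13 were lower. CDH7 was at 5.71 against 114 CPM in E50_1 and 13.8 against 51.7 CPM in E60_1. Of 20 tested genes said to divide embryonic Purkinje cells into subsets, 4 were higher and 3 were lower, and the 4 are FOXP2 and the 3 EBF genes.

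The 10 genes named as lower include genes of other inhibitory neurons. ZFPM2, a cofactor of GATA factors, was at 23.5 against 632 CPM in E50_1 and 72.0 against 753 CPM in E60_1 (log2 fold change -3.99, adjusted p = 0.000661). NXPH1, a ligand of neurexins, was at 56.4 against 532 and 18.4 against 623 CPM (-3.86, adjusted p = 0.00195). The other GABA cells were 9.45 and 33.9 times higher in NXPH1. The remaining named genes were the ion channel ASIC4, the secretion factor CADPS2, the RNA-binding protein ELAVL4, the transcription factor ZFHX4, the calcium sensor VSNL1, and GRIA4, SST and GRIN2B. The levels of these 8 in other GABA cells were 5.996 to 34.6 times those of the members in E50_1 and 6.01 to 15.8 times in E60_1, at adjusted p-values of 0.000401 to 0.00289.

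Of 9 tested genes of cerebellar GABAergic interneurons, 0 were higher and 3 were lower. TFAP2B was at 0 UMIs in the members, while it was at 137 and 36.4 CPM in other GABA cells, at least 64.0 and 7.92 times higher when 3 UMIs per library are taken as the limit in the members. PAX2 was at 14.98 against 65.0 and 6.13 against 26.4 CPM (-2.04, adjusted p = 0.0201). The list summed to 108 CPM in the members against 843 CPM in E50_1 and to 47.5 against 743 CPM in E60_1. The third was NXPH1, which at the levels given above made up most of the sum of other GABA cells in both libraries.

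Genes that pattern the hindbrain and midbrain were low in the members, with 0 of 9 higher and 4 lower, which were PAX2, PAX5, OTX2 and IRX3. EN2, a homeobox gene of the midbrain and cerebellum, was at 52.1 against 43.1 CPM in E50_1 and 15.3 against 79.9 CPM in E60_1 (adjusted p = 0.67). EN1 was at 0 in the members, but had only 13 UMIs in the whole series. Of 13 telencephalic genes 0 were higher and 1, EMX2, was lower, at 2.14 against 34.7 CPM and 0 against 3.53 CPM. The telencephalic list summed to 91.3 CPM in the members against 367 CPM in E50_1 and 153 against 203 CPM in E60_1, where SOX6 alone gave 132 CPM in the members and 129 CPM in microglia.

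Against the PAX6 ZIC1 RELN cells, in a second fit without CALB1, CA8, PAX6, ZIC1 and RELN, 197 of 12206 genes were higher in the members (1.61%) and 249 were lower (2.04%). Of the Purkinje transcription factors 9 of 15 were higher and 0 were lower, and ESRRB now passed (log2 fold change 2.70, adjusted p = 0.0403). NEFL was at 1933 against 90.8 CPM and 923 against 61.3 CPM (4.21, adjusted p = 0.00489). SLC32A1 was at 107 against 2.47 CPM in E50_1 and 61.3 against 0 CPM in E60_1, and of 20 genes of the GABA list 5 were higher, with GAD1, GAD2, GABRG3 and SLC12A5, the chloride exporter of maturing neurons, as the others. Of 9 tested granule cell genes 0 were higher and 5 were lower. NEUROD1 was at 4.99 against 345 and 7.66 against 269 CPM (-5.67, adjusted p = 0.00489), and CBLN1, a cerebellin secreted by granule cells, was at 2.85 against 161 and 12.3 against 146 CPM. TMEM132C, with 508 against 222 CPM in E50_1 and 423 against 59.9 CPM in E60_1, did not pass in this fit (1.93, adjusted p = 0.0587), while the other 14 genes named as higher did.

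Transcripts of other cell types were measured in the same sums. None of 10 microglia, 8 astroglia, 7 oligodendroglia, 9 vascular or 6 erythroid genes differed between the members and other GABA cells by the test. Their levels differed between the libraries. Summed over their lists, microglia genes were at 54.9 CPM in the members of E50_1 and 650 CPM in those of E60_1, astroglia genes at 332 and 1955 CPM, vascular genes at 207 and 469 CPM, and erythroid genes at 1228 and 20120 CPM. At least 2 microglia UMIs, 3 UMIs of SLC1A3 plus AQP4 or over 5% hemoglobin were found in 18 of 132 members of E50_1 (13.6%) and 53 of 118 members of E60_1 (44.9%). Other GABA cells showed the like, with 15.2% and 53.3%. The part of these transcripts in the values of E60_1 was not tested beyond leaving these cells out, as below.

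Members of E60_1 were then set beside those of E50_1. With 1 library per stage there is no test, and a gene was taken as apart if its CPM differed at least 4-fold and the bound of its counting interval nearest to 1 was past 2-fold. By this rule 402 of 10102 genes were higher at E60 (3.98%) and 190 were higher at E50 (1.88%). Without the cells that held UMIs of other types, 50 genes were higher at E60 and 119 at E50, of which 36 and 84 were among those called with all members. Leaving cells out also left fewer UMIs to call a gene with, from a median of 4182.5 UMIs a member.

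The 6 genes named as higher at E60 are known from glia and vessels. AQP4, the water channel of astrocytes, went from 5.71 to 555 CPM, and was found in 45.8% of the E60_1 members and in 30.8% of its microglia. EDNRB, an endothelin receptor, was in 36.4% of the members and 23.0% of the microglia. ITM2A, SPP1, SPARCL1 and CAV1 had 78.9%, 84.5%, 82.8% and 75% of their UMIs in the 3 highest members of E60_1. The 3 highest cells were taken for each gene by itself.

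The 6 genes named as higher at E50 were lower at E60 in the other classes too. TUBB3, a neuronal tubulin, was at 2825 CPM in the members of E50_1 and 67.5 CPM in those of E60_1, at 2834 and 69.9 CPM in other GABA cells, and at 457 and 4.13 CPM in microglia. C4orf48, a secreted peptide gene, went from 539 to 4.60 CPM in the members, and from 63.9 to 0.662 CPM in microglia. PCSK1N, CHCHD10, SIVA1 and SUPV3L1 were 33.4, 44.1, 54.2 and 21.6 times higher in the members of E50_1. SUPV3L1, a mitochondrial RNA helicase, was at 707 and 28.6 CPM in microglia, a difference of the same direction and like size as in the members.

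Some genes differed between the stages in the members without a like change in the classes beside them. Genes were taken if called both with and without the cells that held UMIs of other types. They also needed at least 20 UMIs in both other classes. Of these, 5 of 24 higher at E60 and 8 of 79 higher at E50 did not change 2-fold in the same direction in other GABA cells or PAX6 ZIC1 RELN cells. A change the other way was not limited. DIRAS3 was 2.15 times higher at E60 in other GABA cells once cells with UMIs of other types were left out. This filter was chosen after the values were seen and has no test. The 5 include EPHA7, SEMA6A, MDFI and TANC1. EPHA7, an ephrin receptor, was at 26.4 and 133 CPM, 5.05 times (interval 3.40 to 7.64), against 81.2 and 44.1 CPM in other GABA cells. SEMA6A, a membrane-bound semaphorin, was 8.08 times higher in E60_1 with all members and 4.51 times higher without the cells that held UMIs of other types.

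The 8 that were higher at E50 were FMN2, DIRAS3, DOK6, IGSF21, PTCHD4, SHISA9, UNC5D and KCNJ6. The netrin receptor UNC5D was at 663 CPM in E50_1 and 104 CPM in E60_1, against 97.2 and 89.9 CPM in other GABA cells. FMN2, an actin-nucleating formin, was at 265 and 18.4 CPM, but only 36 of 132 members of E50_1 held it and 1 cell gave 115 of its 372 UMIs. At 2000 UMIs per cell FMN2 was in 8.98% and 3.91% of the members, against 7.58% and 7.27% of other GABA cells. DIRAS3, a small GTPase, was at 311 and 29.1 CPM, and at 2000 UMIs in 30.2% and 5.57% of the members.

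NPY, a neuropeptide, had a wide difference between the stages. It was at 24.97 CPM in the members of E50_1 and 396 CPM in those of E60_1, 15.8 times, and 48.6 times (interval 28.1 to 91.1) without the cells that held UMIs of other types. At 2000 UMIs per cell NPY was found in 3.60% of the members of E50_1 and 51.9% of those of E60_1. In other GABA cells these shares were 8.996% and 11.2%, and the level went from 156 to 333 CPM. In microglia NPY was in 10.2% and 2.69% of the cells at full depth.

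Of 15 Purkinje transcription factors compared between the stages, 2 were apart as higher at E60 and 1 as higher at E50. FOXP1 was at 89.9 CPM in E50_1 and 386 CPM in E60_1, 4.30 times (interval 3.46 to 5.37), and 2.76 times without the cells that held UMIs of other types. ETV1 was at 3.57 and 33.7 CPM, with 5 UMIs in E50_1. EBF1 in E60_1 was 1.15 times its level in E50_1, ITPR1 1.41 times, RORA 0.857 times, SKOR2 0.742 times and FOXP2 0.551 times, while CALB1 was 2.85 times and CA8 0.708 times, the last 2 under the rule. EBF2 was the gene higher at E50, with 775 and 149 CPM, 5.21-fold, and its E60_1 level was 0.353 times that of E50_1 in other GABA cells. Without the cells that held UMIs of other types EBF2 was at 845 and 261 CPM, 3.24-fold and inside the 4-fold limit. NDNF was lower in both classes, with 280 and 46.0 CPM in the members and 6.23 and 0.588 CPM in other GABA cells. BCL11A was at 156 and 346 CPM, and at 2000 UMIs was in 25.5% and 52.4% of the members, against 19.0% and 17.9% of other GABA cells.

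**Figure D4:**
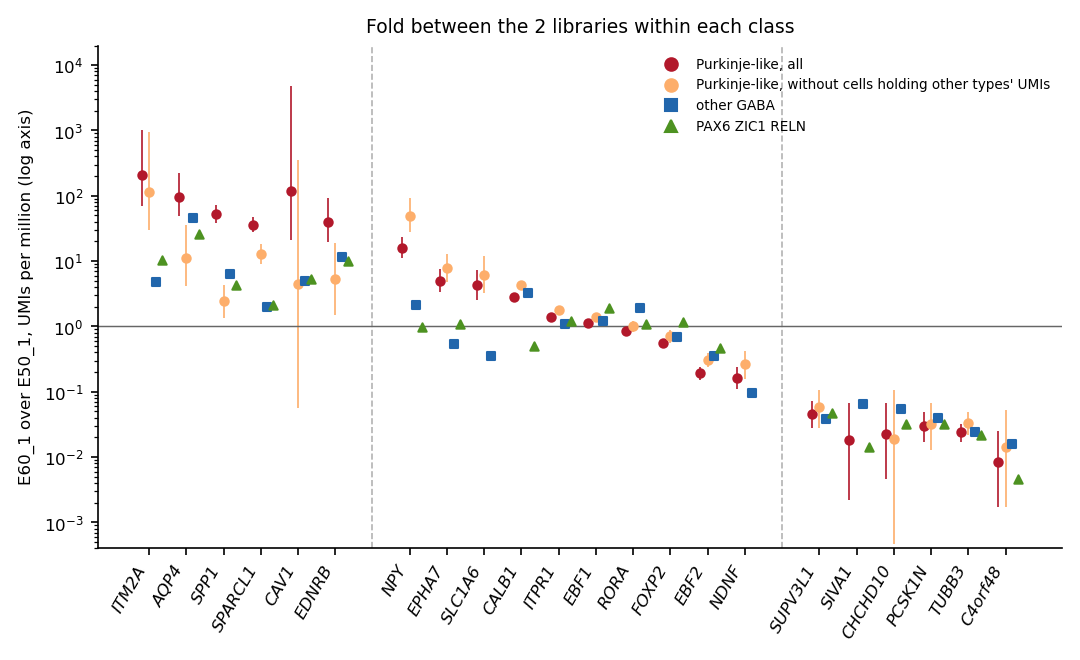
Fold of E60_1 over E50_1 in CPM (log axis) for the genes described, with 95% counting intervals for the members. Dark red marks all members, squares mark other GABA cells and triangles mark PAX6 ZIC1 RELN cells. Light orange marks members without those past the limits for microglia, SLC1A3 plus AQP4 or hemoglobin UMIs. Members below these limits can still hold such UMIs, and AQP4 was itself used for the limit. TUBB3 lies at about the same fold in all classes, while EPHA7, at 5.05 times, lies apart from the 0.543 times of other GABA cells; genes with 0 UMIs in a sum are not drawn.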

How the data were processed

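Single-cell libraries of pig MEC were made by the authors with 10x Chromium 3′ chemistry and deposited as raw UMI counts of genes by cells. The submitters' processing notes name Cell Ranger 2.20 and Sscrofa11.1, and introns were counted, so unspliced RNA adds to every gene. Members and gene lists were chosen with earlier results of these data known. UMI counts were summed per class and library, and genes with at least 20 UMIs over the 4 sums were fitted in edgeR 4.0.16 (R 4.3.3) with library and class as terms and Benjamini-Hochberg adjustment over all genes. The cells of E50_1 came from a pool of 3 brains and those of E60_1 from 1 brain. The p-values thus rest on these sums and on a spread shared among genes, and do not measure the spread between animals. Named genes had an adjusted p under 0.05, a fold of at least 4 in each library and detection in at least 25% of cells, and were ranked by the smaller fold, with 15 higher and 10 lower. For the stages, 6 genes in each direction were ranked by the bound nearest to 1 among those with at least 50 UMIs. List genes are named by role. Between stages, exact conditional intervals cover counting error only. A divisor of 0 was set to 3 counts. Shares at 2000 UMIs are exact hypergeometric expectations, and counts of list genes per cell come from 1 random draw. No doublet caller was run. Some genes are not reported here. The fit was tested on simulated data. DESeq2 1.42.0 was an alternative.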

Additional observations from a re-analysis of the deposited data

Results flagged for a closer look

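Cells with a UMI of both CALB1 and CA8 appeared in 4 libraries outside the comparisons above the 3 cells taken as the limit of a count of 0. E60_2 held 5 such cells, with at most 2 UMIs of CALB1 and 1 of CA8, at a median of 6383 UMIs against 5477 in the library. E60_3 held 10, with at most 2 UMIs of each gene, at a median of 22264 UMIs against 7968. E70_1 held 6, with at most 1 UMI of CALB1 and 2 of CA8, at a median of 50162 UMIs against 9294. E70_3 held 11, with at most 3 UMIs of each gene, at a median of 13650 UMIs against 6828. SKOR2 was detected in 0, 0, 2 and 0 of these cells.

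Some list genes lay above other GABA cells in one library and below them in the other, and the difference was not tested. SLC1A6, a glutamate transporter of adult Purkinje cells, was at 0.354 times (interval 0.221 to 0.543) in E50_1 and 4.29 times (2.62 to 7.12) in E60_1. EPHA7 was at 0.325 and 3.03 times, EPHA5 at 0.366 and 2.28 times, and FOXP1 at 0.424 and 1.38 times. STMN2 was at 0.930 and 1.23 times and GRM5 at 1.17 and 0.817 times.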

How the results depend on the processing

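No paired analysis was possible because the libraries compared share fewer than 2 replicate numbers, and the library was already a term of the fit. Leaving out a library leaves no residual degrees of freedom, so the counts of genes could not be computed that way, and the folds per library in the report stand in for it. Against other GABA cells, 129 genes were higher and 207 lower. These counts were 297 and 518 with no filter, 85 and 119 with DESeq2, 377 and 533 in cells of 3000 to 12000 UMIs, and 582 and 819 without cells that held UMIs of other types. With no library term they were 0 and 0, with 291 and 486 at an unadjusted p under 0.05. Of the 129 and 207 genes, 128 and 206 remained without those cells and 82 and 113 with DESeq2, which gave no adjusted p for 1887 genes. Against PAX6 ZIC1 RELN cells the counts of 197 and 249 became 616 and 693 with no filter, 531 and 628 in the depth window, 863 and 1076 without those cells, and 0 and 0 with no library term, with 688 and 752 at an unadjusted p under 0.05. The looser rule gave 362 and 413, and the stricter rule gave 152 lower. The 25 named genes kept their direction under every setting run and their call under each with a test, except with no library term, where 0 of 25 passed at like folds (ARHGEF33 5.55, ITPR1 4.41 and ASIC4 -3.76 on the log2 scale). Without E50_1, 13 of the 25 log2 folds moved by more than their standard error, and without E60_1 10 did. Folds moved by over 1.5 times for NXPH1 (-5.08 without E50_1, -3.24 without E60_1), GRIA4 (-3.03, -5.11), ZFPM2 (-3.39, -4.75), RORA (2.75 without E50_1), STK17B (3.20) and VSNL1 (-3.65). The share of members in E50_1 was 1.83% with the stricter rule, 2.90% without those cells and 0.618% in cells drawn to 2000 UMIs. In E60_1 it was 0.710%, 3.43% and 0.722%, and 1.77% with the looser rule. Genes higher at E60 fell from 402 to 194 in the depth window and to 50 without those cells, where genes higher at E50 fell from 190 to 119. The causes of these moves were not tested. Depth in E60_1 limits genes under about 20 UMIs.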
